A study of Zea mays with 18 samples.

Results

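A set of 57 genes stood higher in transgenic than in control maize anthers at the earliest stage sampled and lower at the next. RNA had been sequenced from anthers of plants with an active ZmCCT transgene, called ZmCCT(+), and from non-transgenic control plants, called ZmCCT(-), at the stages S3-4, S5-6 and S7. Each combination of stage and genotype had 3 libraries, 18 in all. The labels give no inbred background, plant age, promoter, transgenic line or number of plants per library. Nothing in them says that replicates came from separate plants, so every p-value here measures the spread between libraries only, which may be technical. The 57 genes were chosen from 45578 by their CPM, the raw count scaled to a common library total. The mean CPM of ZmCCT(+) over that of ZmCCT(-), each with 0.1 added, had to be 3 or more at S3-4, and the reverse ratio had to be 3 or more at S5-6. ZmCCT(+) at S3-4 and ZmCCT(-) at S5-6 both had to reach 2 CPM. Values at S3-4 and S5-6 therefore chose the genes and are given below as a description with no test. The 6 libraries of S7 were not used in the choice, and the tests below are of that stage.

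ZmCCT10 encodes a CCT-domain regulator that delays maize flowering under long days. A maize anther consists of lobes in which pollen mother cells are enclosed by somatic layers, the innermost of which, the tapetum, feeds the developing pollen. Gene activity in this organ changes quickly with stage, since cell fates are set, meiosis is entered and the pollen wall is built within a short period. All 57 genes carry Zm00001d identifiers, and neither the deposited tables nor the gene table used here pairs any of them with a name or a function, so they are given by identifier, position and behaviour. For the same reason ZmCCT10 itself and marker genes of anther cell types were not analysed here by name, and the tissue and stage labels could not be checked against markers. In bulk anthers, a lower level can come from fewer cells of a type or from less RNA per cell, and these cannot be told apart.

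The library totals lay between 14846974 and 23652182 counts. The 3 S3-4 ZmCCT(+) libraries stood apart, with TMM factors (the scaling edgeR applies for unequal composition) of 0.845 to 0.854, against 0.961 to 1.08 in the other 15 libraries. Membership rests on these 3 libraries and cannot be had without them; the S7 counts are given with and without them.

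At S3-4, 1950 genes passed the ratio and the minimum on the ZmCCT(+) side, and the 57 are 2.92% of these, where 1.85% of the 24694 genes tested at S7 met the S5-6 condition. At S5-6, 456 genes passed on the ZmCCT(-) side, and the 57 are 12.5% of these, where 7.90% of all genes tested met the S3-4 condition. The genes tested were not held to the minimum of 2 CPM, so these shares compare genes of unlike levels. What part the level plays was not tested. A further 85 genes, or 4.36% of the 1950, were higher in ZmCCT(+) at both stages. The mirrored rule, lower in ZmCCT(+) at S3-4 and higher at S5-6, found 27 genes.

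Among the 57 genes, S3-4 ZmCCT(+) was the highest of the 6 groups for 46 and S5-6 ZmCCT(+) the lowest for 48, an order that the rule sets in part. The median gene was 5.47-fold higher in ZmCCT(+) at S3-4, with a range of 3.06 to 30.5, and 4.31-fold lower in ZmCCT(+) at S5-6, with a range of 3.02 to 26.1. A ratio of 8 or more was reached by 19 genes at S3-4, by 11 at S5-6 and by 2 at both stages. Summed over the 57 genes, the level was 5870, 6329 and 6105 CPM in the S3-4 ZmCCT(+) libraries, against 647, 639 and 629 CPM in S3-4 ZmCCT(-). At S5-6 the sums were 155, 167 and 159 CPM in ZmCCT(+), against 756, 754 and 713 CPM in ZmCCT(-). At S7 they came to 1147, 1140 and 1121 CPM in ZmCCT(+), against 1064, 1036 and 1055 CPM in ZmCCT(-). The sums of the genotypes lay far apart at the first 2 stages, as the rule requires, and close together at S7, where they still did not overlap. A single gene, Zm00001d003190, gave 265 CPM of the mean S7 sum in ZmCCT(+) and 207 CPM in ZmCCT(-). Without it, the mean S7 sums were 871 and 845 CPM.

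**Figure D1:**
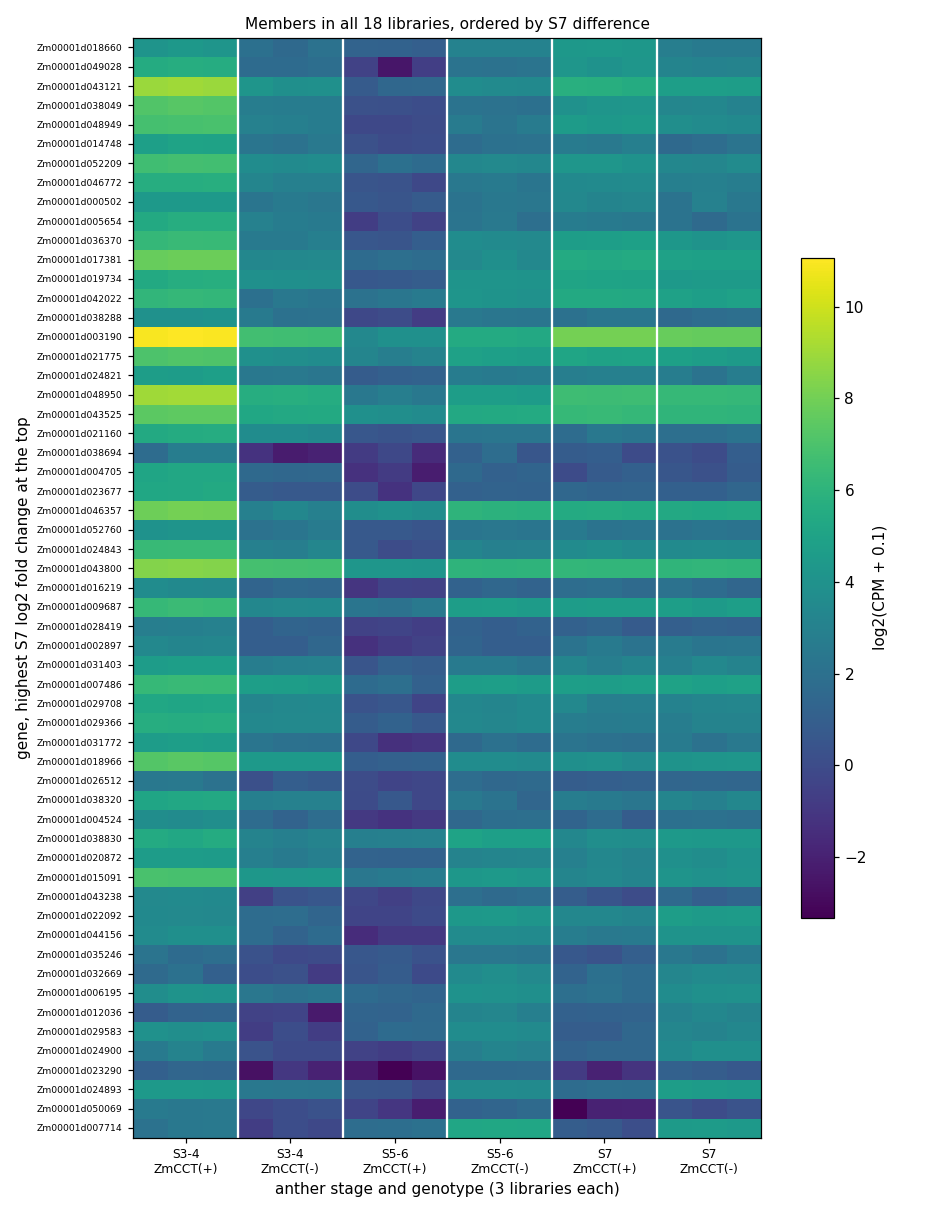
Level of each of the 57 genes (rows, highest S7 log2 fold change at the top) in all 18 libraries (columns), as log2(CPM + 0.1) by colour. The S3-4 ZmCCT(+) columns hold the highest group mean of 46 genes and the S5-6 ZmCCT(+) columns the lowest of 48. The rows at the bottom are darker in S7 ZmCCT(+) than in S7 ZmCCT(-).

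The changes between S3-4 and S5-6 within each genotype use the libraries of the rule and are a description. The 2 ratios of the rule together require that the genotypes change differently between these stages. In ZmCCT(+) the median gene was 18.3-fold higher at S3-4 than at S5-6, and the range ran from 0.839 to 197. In ZmCCT(-) the median ratio of S5-6 over S3-4 was 1.11, with a range from 0.405 to 43.6. The controls were within 2-fold between these stages for 36 genes, at least 2-fold higher at S5-6 for 19 and at least 2-fold lower for 2. For a gene with a steady control, the rule itself puts S3-4 ZmCCT(+) above and S5-6 ZmCCT(+) below both of these control groups. The split by the control was chosen after the values were seen and is described with no test of its own.

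Of the 57 genes, 2 had the largest swing, taken as the smaller of their 2 log2 ratios. Zm00001d049028 (chromosome 4, 13011116 to 13012047, minus strand) had 46.9, 49.6 and 48.8 CPM in S3-4 ZmCCT(+), against 3.13, 3.23 and 3.59 CPM in S3-4 ZmCCT(-). At S5-6 it had 0.622, 0.0846 and 0.541 CPM in ZmCCT(+), against 4.35, 4.17 and 4.53 CPM in ZmCCT(-). The transgenic anthers thus held both its highest and its lowest values, a 94.0-fold span with 0.1 CPM added to each mean, while its control level moved 1.30-fold. The S5-6 ZmCCT(+) values are low, so the size of this span depends on few counts and on the added 0.1. At S7 it had 18.8, 15.9 and 18.4 CPM in ZmCCT(+), against 8.88, 8.16 and 8.44 CPM in ZmCCT(-). The groups did not overlap at S7, and the gene was 2.04-fold higher in ZmCCT(+) (log2 fold change 1.03 ± 0.10 SE, edgeR adjusted p = 4.89e-15).

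Zm00001d023290 (chromosome 10, 2230214 to 2231452, minus strand) showed the same 2 ratios with a changing control. At S3-4 it had 2.03, 2.59 and 2.504 CPM in ZmCCT(+), against 0.0559, 0.397 and 0.156 CPM in ZmCCT(-). At S5-6, ZmCCT(+) had 3 counts in all 3 libraries together and ZmCCT(-) had 169. The ratio by the rule, with 0.1 CPM added to each mean, was 19.97. Without the added 0.1, the counts scaled to the library totals gave 59.2, which rests on the 3 counts of ZmCCT(+). These counts helped to choose the gene, so both ratios are a description only. Its control level was 10.2-fold higher at S5-6 than at S3-4. At S7 it had 0.472, 0.157 and 0.349 CPM in ZmCCT(+), against 2.11, 1.80 and 1.43 CPM in ZmCCT(-), with no overlap, and was 5.66-fold lower in ZmCCT(+) (log2 fold change -2.50 ± 0.39 SE, edgeR adjusted p = 4.48e-08).

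Compared per length, as TPM, an abundance per transcript length that the authors computed, a pair of genes stood highest. Zm00001d003190 (chromosome 2, 35066062 to 35067313) reached 2818 ± 120 TPM (SD, n = 3) in S3-4 ZmCCT(+), against 134 ± 4.32 TPM in S3-4 ZmCCT(-). It had 17.9 ± 3.67 TPM in S5-6 ZmCCT(+), against 58.1 ± 2.41 TPM in S5-6 ZmCCT(-), and 358 ± 4.52 TPM in S7 ZmCCT(+), against 258 ± 9.12 TPM in S7 ZmCCT(-). This gene alone gave 2036 of the mean summed 6102 CPM of the set in S3-4 ZmCCT(+). In S7 it had 267.5, 264.9 and 262.5 CPM in ZmCCT(+), against 215, 199.6 and 206.1 CPM in ZmCCT(-), without overlap, and was 1.26-fold higher (log2 fold change 0.33 ± 0.06 SE, edgeR adjusted p = 0.000512). The call was lost with an assumed spread of 20% between libraries (adjusted p = 0.461).

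Zm00001d048950 (chromosome 4, 10553796 to 10554681, plus strand) reached 1117 ± 16.6 TPM in S3-4 ZmCCT(+), against 100.2 ± 5.04 TPM in S3-4 ZmCCT(-). It had 11.8 ± 2.04 TPM in S5-6 ZmCCT(+), against 51.5 ± 2.18 TPM in S5-6 ZmCCT(-), and 199 ± 3.99 TPM in S7 ZmCCT(+), against 147 ± 4.66 TPM in S7 ZmCCT(-). On the counts it was 1.21-fold higher at S7 (log2 fold change 0.28 ± 0.04 SE, edgeR adjusted p = 8.98e-09), and this call too was lost with the assumed spread (adjusted p = 0.568). Its neighbour Zm00001d048949 (chromosome 4, 10536338 to 10537204, minus strand), named because of its position after the values were seen, starts 16592 bases away with no listed gene between and is also a member. It had 113, 117 and 123 CPM in S3-4 ZmCCT(+), against 7.77, 7.20 and 6.60 CPM in S3-4 ZmCCT(-). At S5-6 it had 0.778, 0.761 and 0.902 CPM in ZmCCT(+), against 6.20, 4.55 and 6.27 CPM in ZmCCT(-). Both neighbours were thus high in S3-4 ZmCCT(+) and low in S5-6 ZmCCT(+), and Zm00001d048949 was 0.80 higher at S7 on the log2 scale (± 0.08 SE, edgeR adjusted p = 2.71e-14).

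**Figure D2:**
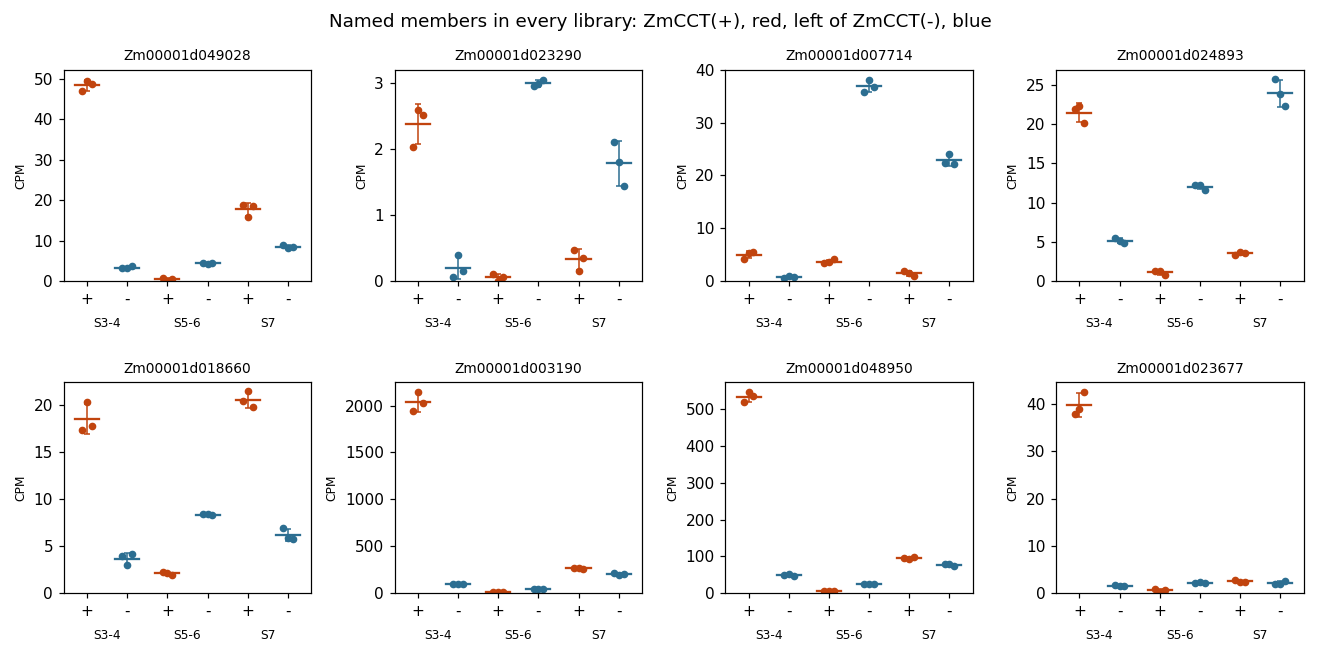
CPM of the 8 genes named by the rule in every library, with ZmCCT(+) in red left of ZmCCT(-) in blue at each stage. Points are libraries, horizontal lines are means and vertical bars are SD (n = 3). Zm00001d049028, Zm00001d003190, Zm00001d048950 and Zm00001d023677 show a single tall group, S3-4 ZmCCT(+), whereas the blue S5-6 and S7 groups stand tall for Zm00001d007714.

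Close to the threshold, Zm00001d023677 (chromosome 10, 15030181 to 15032801) was just inside, with an S5-6 ratio of 3.02. It had 39.8 ± 2.48 CPM in S3-4 ZmCCT(+), against 1.59 ± 0.125 CPM in S3-4 ZmCCT(-), and 0.664 ± 0.302 CPM in S5-6 ZmCCT(+), against 2.21 ± 0.104 CPM in S5-6 ZmCCT(-). Zm00001d023216 was just outside, with an S5-6 ratio of 2.99. It had 0.978 ± 0.157 CPM in S5-6 ZmCCT(+), against 3.12 ± 0.407 CPM in S5-6 ZmCCT(-). Its S3-4 level was 10.4 ± 0.963 CPM in ZmCCT(+), against 1.11 ± 0.370 CPM in ZmCCT(-).

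At S7, the stage that the rule did not use, the genotype difference no longer ran in 1 direction. All 57 genes passed the filter on low counts, through the levels the rule requires at the earlier stages, and were tested among 24694 genes. In edgeR's quasi-likelihood test at an adjusted p below 0.05, 20 of the 57 genes were higher in ZmCCT(+), or 35.1%, where 24.1% of all genes tested were. Lower in ZmCCT(+) were 22, or 38.6%, where 30.4% of all were, and 15 did not pass. The median log2 fold change was -0.02, beside -0.04 for all genes tested. Without the S3-4 libraries in the fit the counts were 21 higher and 20 lower, where 28.1% and 28.6% of all genes tested in that fit were. With an assumed spread of 20% between libraries they were 7 and 16, where 4.59% and 8.69% of all genes tested passed. On TPM with a pseudocount of 1, limma-trend called 22 higher and 19 lower, where 36.1% and 19.96% of all were. With a pseudocount of 0.1 it called 22 and 18, where 35.2% and 19.1% of all were. The share called higher, 38.6%, thus lay close to that of all genes on TPM, while the share called lower stayed above. The excess of higher calls therefore depends on the setting. Single genes thus moved either way around a median near 0, and with the assumed spread more of them were called lower than higher.

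The spread around that median was wide on the lower side. At least 2-fold lower and called were 12 genes, or 21.1%, against 5.73% of all genes tested. At least 2-fold higher and called were 2 genes, or 3.51%, close to the 3.21% of all genes tested. Without the S3-4 libraries these counts were again 12 and 2. The 2 became 1 without S7 ZmCCT(+) replicate 1 or replicate 3, while limma-trend on TPM with a pseudocount of 0.1 gave 4. The libraries of the genotypes did not overlap at S7 for 22 genes with higher and 20 with lower values in ZmCCT(+), where 29.0% and 30.5% of all genes tested did not overlap, so these shares of 38.6% and 35.1% lie nearer to the background. A difference of 1.5-fold or less was found for 30 of the 57, or 52.6%, while 78.6% of all genes tested were that close.

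**Figure D3:**
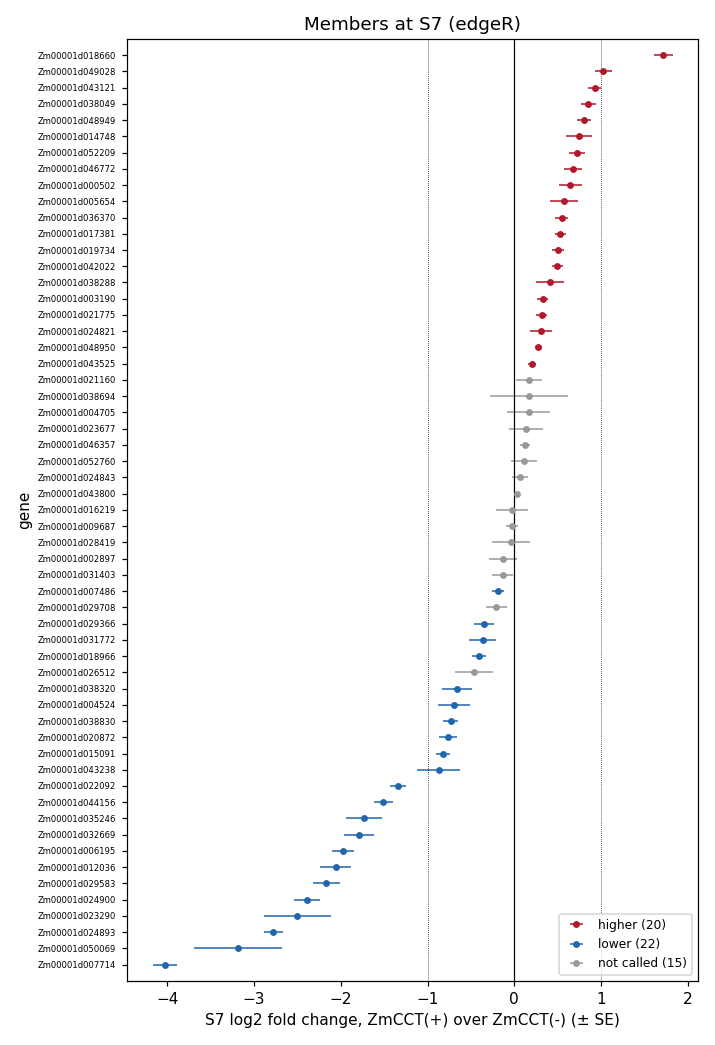
Log2 fold change of each gene at S7, ZmCCT(+) over ZmCCT(-), with SE bars from edgeR; dotted lines mark 2-fold. The 20 genes called higher end in Zm00001d018660 at 1.72, and the 22 called lower reach -4.03 for Zm00001d007714.

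The lowest at S7 were Zm00001d007714 and Zm00001d024893. Zm00001d007714 (chromosome 2, 238013082 to 238015359) had 1.82, 1.51 and 0.989 CPM in S7 ZmCCT(+), against 22.4, 24.1 and 22.1 CPM in S7 ZmCCT(-). The groups were far apart, and the gene was 16.3-fold lower in ZmCCT(+) (log2 fold change -4.03 ± 0.14 SE, edgeR adjusted p = 3.36e-42). In the controls this gene had 0.749 ± 0.232 CPM (SD, n = 3) at S3-4, 36.9 ± 1.16 at S5-6 and 22.9 ± 1.09 at S7. In ZmCCT(+) it had 4.996 ± 0.713, 3.67 ± 0.363 and 1.44 ± 0.420 CPM at the same stages, so its high S5-6 level was seen in the controls alone.

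Zm00001d024893 (chromosome 10, 93373491 to 93373802) had 3.30, 3.71 and 3.60 CPM in S7 ZmCCT(+), against 25.7, 23.8 and 22.3 CPM in S7 ZmCCT(-), and was 6.85-fold lower (log2 fold change -2.78 ± 0.11 SE, edgeR adjusted p = 2.84e-37). Its control level was higher at each later stage, with 5.14 ± 0.295 CPM at S3-4, 12.04 ± 0.366 at S5-6 and 23.9 ± 1.71 at S7. In ZmCCT(+) the levels were 21.5 ± 1.17, 1.08 ± 0.313 and 3.54 ± 0.213 CPM. A further member with the same span of 312 bases on the same strand, Zm00001d024900 (chromosome 10, 93694881 to 93695192), lies 321079 bases away and was also lower in ZmCCT(+) at S7 (log2 fold change -2.39 ± 0.15 SE, edgeR adjusted p = 1.62e-24). It is named by its position, after its values were seen. The sources used here do not say how reads that map to similar genes were counted, and whether these 2 genes share reads was not tested.

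The highest at S7 were Zm00001d018660 and Zm00001d049028, the gene described above. Zm00001d018660 (chromosome 7, 2084866 to 2087283) had 20.4, 21.5 and 19.8 CPM in S7 ZmCCT(+), against 6.90, 5.83 and 5.74 CPM in S7 ZmCCT(-). The groups did not overlap, and it was 3.29-fold higher in ZmCCT(+) (log2 fold change 1.72 ± 0.11 SE, edgeR adjusted p = 2.01e-25). In ZmCCT(+) it had 18.5 ± 1.60 CPM at S3-4, 2.16 ± 0.153 at S5-6 and 20.6 ± 0.861 at S7, so its S7 level was back at that of S3-4. In the controls it had 3.67 ± 0.641, 8.36 ± 0.0345 and 6.16 ± 0.647 CPM.

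The remaining 18 genes called higher at S7 differed by less than 2-fold. Over all 20, the median was 1.47-fold and the range ran from 1.15 to 3.29. The genotypes did not overlap for these 20, which being called nearly fixes, since 96.8% of all genes called higher did not overlap either. S3-4 ZmCCT(+) was the highest of the 6 groups for 19 of the 20. Their median S3-4 ratio was 9.13, while that of the 12 genes lower by 2-fold or more at S7 was 4.36. At S5-6 the median ratio of ZmCCT(-) over ZmCCT(+) was 3.73 for the same 20 genes and 9.25 for the 12. For the 15 genes not called at S7 these medians were 4.18 at S3-4 and 3.79 at S5-6. For the 10 called lower by under 2-fold they were 5.07 and 4.97. The rule chose genes by these ratios, and no difference between the groups was tested.

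**Figure D4:**
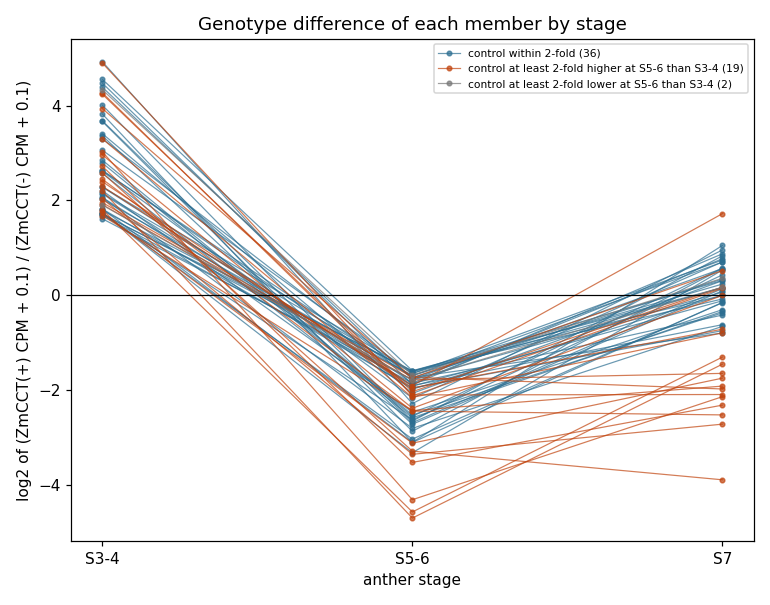
Log2 ratio of ZmCCT(+) over ZmCCT(-) CPM at each stage for the 57 genes, 1 line a gene, coloured by how the control level at S5-6 compared with S3-4. The rule sets the first 2 stages. At S7 the 36 genes with a steady control (blue) lie on both sides of 0, with 17 called higher and 8 lower. Of the 19 with a control higher at S5-6 (red), 12 stay at -1 or lower.

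The genes that were lower by 2-fold or more at S7 were among those whose level in the controls was higher at S5-6 than at S3-4. Of the 19 genes at least 2-fold higher in the control at S5-6, 12 passed at S7 with a level lower by 2-fold or more in ZmCCT(+), 14 were called lower at any size and 2 were called higher. These are 73.7% and 10.5% of the 19, beside 58.4% and 6.99% of all genes tested with such a control. Of the other 38 genes, none was lower by 2-fold or more, with 8 called lower at any size and 18 higher; over all other genes tested, 3.95% were lower by as much, 28.4% were called lower and 25.3% higher. The median S7 log2 fold change was -1.74 for the 19 genes and 0.15 for the 36 with a steady control. The control change and the S7 levels come from different libraries, but the S7 fit took its scaling and spread from all 18. The rule also used the control values that make this split, so the split is not separate from the choice of genes. Among all genes tested, 1617 were at least 2-fold higher in the control at S5-6, and 31.1% of these passed with such a drop at S7, compared with 63.2% of the 19. Of 22055 genes with a steady control, 3.13% were, and of 1022 genes at least 2-fold lower in the control at S5-6, 21.6% were. Lower S7 levels were thus more frequent outside the set too, and among all genes they went with a control change in either direction. With a 3-fold control change instead, 10 of the 12 fell among 15 genes and the other 2 outside, so that the share was 66.7% of the members with such a control, beside 49.8% of all genes tested with one.

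**Figure D5:**
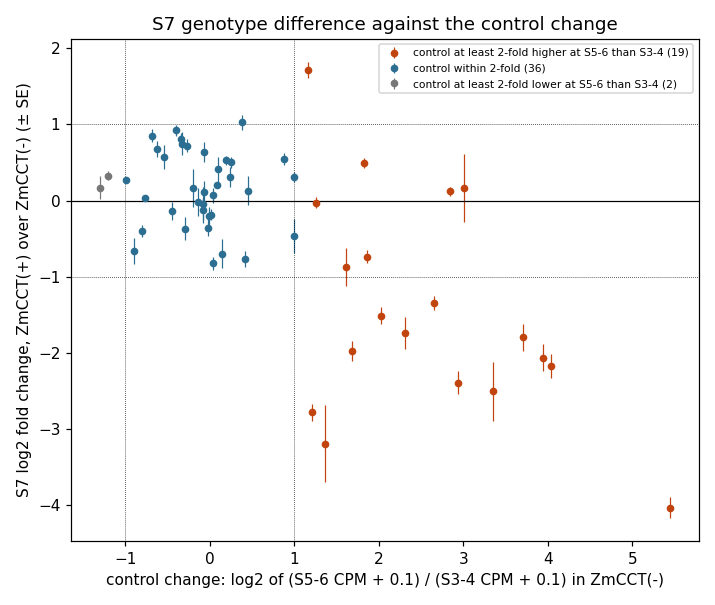
S7 log2 fold change, ZmCCT(+) over ZmCCT(-), with SE bars, against the log2 ratio of S5-6 over S3-4 in ZmCCT(-), for the 57 genes; dotted lines mark 2-fold. The 12 genes below -1 all lie at a control ratio of 2.32-fold or more, and the 36 genes between the vertical lines all lie between -0.82 and 1.03.

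Over these 12 genes the median level in ZmCCT(+) was 6.23 CPM at S3-4, 1.19 at S5-6 and 2.38 at S7. In ZmCCT(-) it was 0.938 CPM at S3-4, 12.03 at S5-6 and 11.9 at S7. The highest of the 6 groups was a control group at S5-6 or S7 for 10 of the 12. At S7 they were 2.54-fold to 16.3-fold lower in ZmCCT(+), with edgeR adjusted p-values of 8.77e-08 or less. None of the 12 overlapped between genotypes, nor did 96.4% of all genes called lower by as much. For the 36 genes with a steady control the median level in ZmCCT(+) was 47.9 CPM at S3-4, 1.30 at S5-6 and 9.07 at S7, and in ZmCCT(-) 7.001, 5.58 and 8.90 CPM. Of these 36, 17 were called higher at S7, or 47.2%, beside 25.7% of all genes tested with a steady control. Called lower were 8, or 22.2%, beside 27.5%, and 24 lay within 1.5-fold, or 66.7%, beside 83.0%.

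Within ZmCCT(+), the S7 level lay between those of S5-6 and S3-4 for 51 of the 57 genes. It was above the S5-6 level for 53, by a median of 5.18-fold over the 57, and below the S3-4 level for 54. These figures share the S3-4 and S5-6 libraries with the rule and are a description.

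The S7 behaviour of the set lay between those of the genes that met 1 condition of the rule alone. Of 1893 genes that met the S3-4 condition and are not members, 24.5% passed and were higher by 2-fold or more in ZmCCT(+) at S7, and 2.69% were lower by as much, with a median log2 fold change of 0.45. Of 399 genes that met the S5-6 condition alone, 0.752% were higher by 2-fold or more and 54.6% lower, with a median of -1.15. The 27 genes of the mirrored rule did not mirror the set at S7. In edgeR 23 of them were called lower, or 85.2%, beside 30.4% of all genes tested. Lower by 2-fold or more were 8, or 29.6%, beside 5.73% of all. Called higher were 0, beside 24.1% of all, and the median log2 fold change of the 27 was -0.79. The number higher was also 0 at an unadjusted p below 0.05 in edgeR and 0 at an adjusted p below 0.05 in the DESeq2 test. No difference between these lists was tested.

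The genes of the set were short. The annotated span, introns included, had a median of 1360 bases, beside 3501 for all genes tested. A span under 1000 bases was found for 22 of the 57, or 38.6%, beside 11.9% of all genes tested. Spans were also shorter in the genes that met 1 condition of the rule, with medians of 2077 bases for the S3-4 condition and 1761 bases for that at S5-6, and with 18.3% and 25.6% under 1000 bases. Within the set, a span under 1000 bases was found for 17 of the 36 genes with a steady control and for 4 of the 19 with a control higher at S5-6.

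The set was spread over all 10 chromosomes, with between 2 and 8 genes on each. Chromosomes 10 and 8 departed most from the share of genes tested there, with 7 genes or 12.3% against 6.58% on chromosome 10, and with 2 genes or 3.51% against 9.13% on chromosome 8. Zm00001d048949 and Zm00001d048950 were the only members within 200 kb of each other. The minus strand held 32 and the plus strand 25. Positions come from the deposited tables, and the sources used here do not name their build.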

How the data were processed

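Anther RNA-seq gave 18 libraries in 6 groups. The authors' deposited count tables, 1 a stage, hold raw counts per gene. A table for each library, also deposited, lists TPM and coverage (a signal: average depth over the bases of a gene, per the file headers); coverage served to check that 18 of 18 count columns matched their own sample best. The submitters' processing notes name Bowtie2, StringTie and DESeq2. The sources used here do not give versions, settings, genome build, strand counting or how multi-mapped reads were counted. Of 43789 Zm00001d identifiers, 0 matched the gene table used here, so no named list, marker or sequence could be used.

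Members were found on CPM over the column total. The members and all lists were chosen with earlier results of these data known. Genes were filtered with filterByExpr (minimum count 10, minimum total 15), which kept 24694 and left out 20884, and TMM-scaled. S7 ZmCCT(+) was set against S7 ZmCCT(-) with the robust quasi-likelihood F test of edgeR 4.0.16 in R 4.3.3, in 1 fit of 18 libraries with 12 residual degrees of freedom. Benjamini-Hochberg adjustment ran over all genes tested, and genes were called below 0.05. The SE divides the log2 fold change, without its sign, by the root of F. Levels are CPM over the column total, while S7 fold changes use the TMM scaling.

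Genes are named by a written rule: the 2 with the largest smaller ratio, the 2 highest and 2 lowest at S7 among called genes of at least 1 CPM with no overlap, the 2 highest in TPM, and those at the threshold. Others are marked where named. In counts simulated for the S7 comparison, the test found 99 of 100 genes with a 2-fold change and 59 of 100 with a 1.25-fold change, and called 15 of 23901 genes left alone. The changed genes were drawn only from those above a minimum mean count. Apart from that change, each gene had the same mean level at every stage and genotype. These rates therefore do not cover members with few counts at S7. Alternatives were size factors or the whole test from DESeq2 1.42.0, voom on counts or trend on TPM from limma 3.58.1 (pseudocounts 1 and 0.1), other filters, a replicate block, only S7 libraries, no S3-4 libraries, an assumed spread of 20% with the likelihood ratio test, each S7 library left out, and other forms of the membership rule. Other forms of the control split were added after seeing the data.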

Additional observations from a re-analysis of the deposited data

How the results depend on the processing

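Across the 17 alternatives to the S7 test, 7 genes were called higher and 15 lower in every setting and 0 changed direction among called genes, while 11 were lower by 2-fold or more in every one. The matching shares over all genes tested are not given here. Genes called higher numbered 7 with the assumed spread of 20%, and those higher by 2-fold or more numbered 4 with limma-trend on log2(TPM + 0.1). Leaving out 1 S7 library gave 18 to 20 higher and 19 to 22 lower. Of all genes tested in these fits, 22.2% to 22.6% were higher and 27.2% to 27.7% lower. By 2-fold or more, 12 to 13 were lower and 1 to 2 higher, where 5.54% to 5.70% and 3.11% to 3.27% of all were. The number higher by 2-fold or more was 1 without ZmCCT(+) replicate 1 or 3. The median log2 fold change stayed near 0 but in some settings moved by more than 0.013, its SD between S7 libraries. It moved by less with no filter (-0.016), the stricter filter (-0.019), the replicate block (-0.019) and the assumed spread (-0.028). It was 0.0021 with DESeq2 size factors, 0.0025 with limma-voom, 0.00050 with the DESeq2 test, 0.011 with S7 libraries only, 0.012 without the S3-4 libraries and -0.026 to 0.038 without 1 library. On log2(TPM + 1) and log2(TPM + 0.1) it was 0.12 and 0.13, where all genes tested also moved, by 0.13 and 0.14. The median of all genes tested also moved by 0.025 with DESeq2 size factors and by 0.024 with the DESeq2 test. It moved by 0.035 with S7 libraries only and by 0.033 without the S3-4 libraries. With limma-voom it moved by -0.00025, and without 1 S7 library by 0.0020 to 0.0067. The cause of these shifts was not tested. Of the values of single named genes, 2 lost their call, both with the assumed spread.

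With the replicate number as a block, 20 genes were called higher and 22 lower, as without it, where 24.0% and 30.3% of all genes tested were. Same-numbered libraries did not deviate together (correlations from -0.042 to 0.043 over 45 pairs), so the numbers were not treated as pairs.

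Membership depended on the rule's settings: 72 genes with TMM-scaled CPM (55 of them members), 71 with TPM (49 shared), 27 with an offset of 1 in the ratio, 226 with ratios of 2, 24 with ratios of 4, 33 with a minimum of 5 CPM, and 54 to 63 without 1 library. The number of genes higher in the control at S5-6 that were lower by 2-fold or more at S7 was 12 in each alternative to that split except a 3-fold control change, which gave 10. Low counts limit single ratios: 44 of the 57 genes had 10 or more counts in each S5-6 ZmCCT(+) library, and 55 in each S7 library.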
